A study of Mus musculus with 10 samples.

Results

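Cholesterol handling in the aneurysmal aorta was described through 8 genes: Abca1, Abcg1 and Nr1h3 for efflux, Lrp1 and Scarb1 for uptake, and Sqle, Srebf2 and Insig1 for synthesis. They were taken as the array spots, other than controls, whose gene name equals a listed symbol. All 8 were found, with 12 probes, and all 8 passed the filter on dim probes, out of 22520 gene names that passed it and 35527 on the array. Of the 12 probes, 11 gave an aortic signal well above background on all 10 arrays, so no gene entered through 1 group only.

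The samples were infrarenal aortas of male C57BL/6J mice, 10 weeks old and on a normal diet, with 1 aorta per array and 500 ng of RNA. The PPE group received porcine pancreatic elastase (PPE, of type I, at 1.5 U per mL) by infusion into the aorta over 5 min at 100 mmHg, a model in which loss of elastin leads to an abdominal aortic aneurysm (AAA). The sham group had saline infused, and both were harvested on day 7, with 5 arrays each. Aortic RNA carried the red dye, and 1 universal mouse reference, the same for every array, carried the green dye. Each value below is therefore a log2 ratio of aorta over reference, and levels of different genes are not compared. The whole vessel wall was measured as bulk tissue. In bulk tissue a change in the number of cells of a type and a change in RNA per cell cannot be told apart.

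Cells hold cholesterol at a steady level by balancing its synthesis, uptake, storage and export. When sterols are scarce in the endoplasmic reticulum, the escort protein Scap carries SREBP-2, the product of Srebf2, to the Golgi, where it is cut and released to switch on synthesis enzymes. When sterols are plentiful, Insig proteins hold Scap back. Oxysterols, in turn, activate the nuclear receptors LXR-alpha (Nr1h3) and LXR-beta (Nr1h2), which with RXR partners switch on the exporters Abca1 and Abcg1. In the arterial wall this balance is best known from macrophages, which take up lipoprotein cholesterol by scavenger receptors and become foam cells when export falls behind.

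The 250 bases before the start site are shown for Abca1, which was higher with PPE, for Insig1, which was lower, and for Srebf2, which was called on 1 of its 2 probes. They are RefSeq sequences on GRCm38.p6, whose promoter table held 5 of the 8 genes (Abca1, Insig1, Lrp1, Nr1h3 and Srebf2). Capitals mark in Abca1 the E-box CACGTG and a pair of GGTNA repeats separated by 5 bases, read on the opposite strand. In Insig1 they mark an inverted CCAAT box and CACGTG, and in Srebf2 the sterol element core TCACCCCA and an inverted CCAAT box.
Abca1, chr4:53159896-53160145, minus strand: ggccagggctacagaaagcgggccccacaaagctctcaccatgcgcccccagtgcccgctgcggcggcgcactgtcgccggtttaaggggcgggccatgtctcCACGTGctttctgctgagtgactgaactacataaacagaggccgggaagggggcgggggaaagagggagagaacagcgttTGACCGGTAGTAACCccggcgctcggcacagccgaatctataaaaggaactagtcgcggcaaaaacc
Insig1, chr5:28071162-28071411, plus strand: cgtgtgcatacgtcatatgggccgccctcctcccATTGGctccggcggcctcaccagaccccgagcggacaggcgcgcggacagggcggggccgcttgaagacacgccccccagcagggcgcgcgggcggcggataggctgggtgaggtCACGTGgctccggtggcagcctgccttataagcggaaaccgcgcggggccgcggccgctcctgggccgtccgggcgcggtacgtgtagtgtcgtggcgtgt
Srebf2, chr15:82147019-82147268, plus strand: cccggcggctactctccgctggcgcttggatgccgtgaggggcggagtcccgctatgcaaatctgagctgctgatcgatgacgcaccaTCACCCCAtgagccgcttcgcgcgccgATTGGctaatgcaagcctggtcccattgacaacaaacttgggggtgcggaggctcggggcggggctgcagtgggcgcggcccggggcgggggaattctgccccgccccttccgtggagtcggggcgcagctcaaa
The E-box began 147 bases before the start in Abca1 and 101 bases before it in Insig1, and the core began 162 bases before it in Srebf2. Searched on both strands of all 32851 promoters of this length, CACGTG was found in 6.02%, CCAAT in 33.8% and the GC box GGGCGG in 32.7%. The core TCACNCCA was in 3.67%, and the longer sterol element TCACNCCAC, which contains the core, in 1.05%. The GGTNA pair, searched for only after these sequences had been seen, was in 0.621%. A direct repeat of AGGTCA spaced by 4 bases, the textbook LXR element, was in 0.0152% and in none of the 5 genes. That search took exact letters only, so repeats with variant letters were not counted. Taken with the base before each repeat, the GGTNA pair marked in Abca1 reads GGGTTA and CGGTCA, spaced by 4 bases, on the opposite strand. These are matches of letters, and nothing in the arrays measures binding to them.

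Differences between PPE and sham were tested across all names with limma, and a gene was called at an adjusted p under 0.01. Of the 8 genes, 3 were called higher with PPE (Abca1, Abcg1 and Scarb1), beside 13.9% of all names tested, and 1 was called lower (Insig1), beside 9.96%. Calls in either direction made up 4 of the 8, beside 23.8%. Sham and PPE values were free of overlap for 3 of the 8 (Abcg1, Scarb1 and Insig1), beside 25.5% of all names. Over all names the median log2 fold change was 0.02. The share of spots with red signal above background ran from 37.6% on sham 5 to 65.8% on PPE 1. The arrays lay on 5 slides. Sham 1, PPE 1 and PPE 2 shared slide 1, while sham 2, sham 3, PPE 3 and PPE 4 shared slide 2. The remaining arrays were alone on their slides. Within-slide differences are given below beside each called gene.

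**Figure D1:**
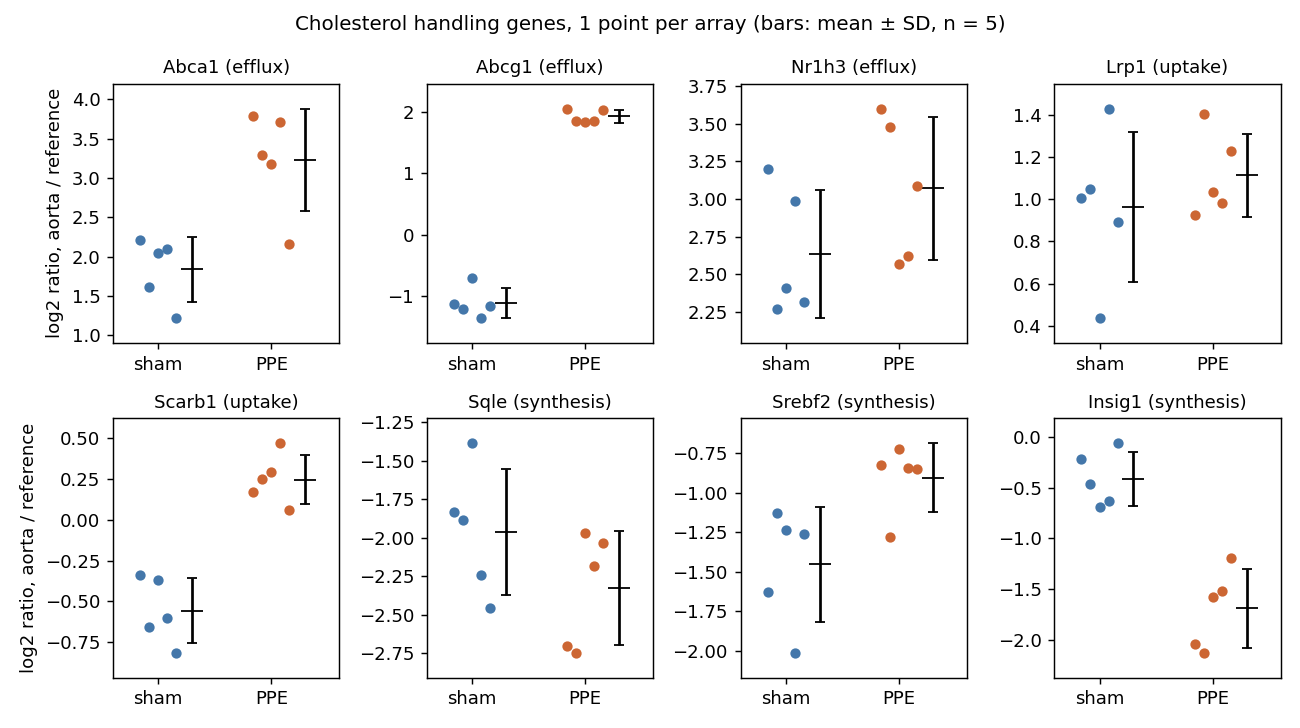
Log2 ratio of aorta over reference for the brightest probe of each gene, 1 point per array, for 5 sham (blue) and 5 PPE (orange) arrays, with the mean and SD as a bar beside them. Each panel has its own vertical scale, and the groups stand apart for Abcg1 (3.04 higher), Scarb1 (0.80 higher) and Insig1 (-1.28, lower with PPE).

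Of the 11 efflux genes tested, Abcg1 had the largest increase. Abcg1 encodes a transporter that passes cholesterol from macrophages to HDL. Its log2 ratios were -1.13, -1.20, -0.71, -1.35 and -1.15 on sham 1 to 5. On PPE 1 to 5 they were 2.05, 1.86, 1.84, 1.85 and 2.04. Every PPE array was above the reference and every sham array below it, with a gap between the groups that is wider than either group's own range. The mean was -1.11 ± 0.24 (SD, n = 5) in sham and 1.93 ± 0.11 in PPE, a difference of 3.04 on the log2 scale (SE 0.13, limma adjusted p 1.54e-07) or 8.20-fold (95% interval 6.76 to 9.94). Within slide 1 the difference was 3.08 and within slide 2 it was 2.80. The probe lies at chr17:31252580-31252639 (mm9, plus strand).

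Abca1 encodes the transporter that loads cholesterol and phospholipid onto lipid-poor apolipoprotein A-I. Log2 ratios were 2.21, 1.61, 2.05, 2.09 and 1.22 on sham 1 to 5. In PPE 1 to 5, the ratios were 3.79, 3.30, 3.18, 3.72 and 2.16. PPE 5 lay just below sham 1, so the groups overlapped, while the other 4 PPE arrays were above every sham array. The lowest value of each group came from the array that had the fewest red spots above background in its group (37.6% of spots on sham 5, 45.8% on PPE 5). The same 2 arrays were also lowest for Scarb1 on its brighter probe (-0.81 and 0.06), but highest on its other probe. For Insig1 they were highest (-0.06 and -1.20), and for Abcg1 they were at neither end of their group. The part of signal quality in these values was not tested. The mean was 1.84 ± 0.41 (SD, n = 5) in sham and 3.23 ± 0.65 in PPE, a log2 difference of 1.39 (SE 0.30, limma adjusted p 0.00363) or 2.62-fold (95% interval 1.66 to 4.14). The call did not survive the loss of some single arrays. The limma adjusted p was 0.0115 without sham 2 (log2 fold change 1.33), 0.0102 without PPE 1 (1.25) and 0.011 without PPE 4 (1.27), and the direction held each time. It was also lost under median centring of the arrays in place of loess (1.94, limma adjusted p 0.163). Within slide 1 the difference was 1.33 and within slide 2 it was 1.62. The probe lies at chr4:53043944-53044003 (mm9, minus strand).

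Nr1h3, the LXR-alpha gene, was not called. Its log2 ratios were 3.20, 2.27, 2.41, 2.99 and 2.32 on sham 1 to 5. On PPE 1 to 5 they were 3.60, 3.48, 2.57, 2.62 and 3.09. The groups overlapped widely, with PPE 3, PPE 4 and PPE 5 inside the sham range. The mean was 2.64 ± 0.43 (SD, n = 5) in sham and 3.07 ± 0.48 in PPE, a log2 difference of 0.43 (SE 0.25, limma adjusted p 0.217). The 95% interval of the fold, 0.920 to 1.99, includes no change. Its other probe, 95 bases away, gave 0.51 (limma adjusted p 0.13 in the fit over all probes).

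The sizes of change were set against each other within roles by exact two-sided permutation tests over the 252 relabellings of the arrays, adjusted over 7 pairs. Abcg1 changed by 1.65 more than Abca1 on the log2 scale (Abca1 minus Abcg1 -1.65, exact p 0.00794, adjusted 0.0185). Abcg1 also changed by 2.60 more than Nr1h3 (exact p 0.00794, adjusted 0.0185). Abca1 changed by 0.96 more than Nr1h3 (exact p 0.0397, adjusted 0.0397), and leaving out single arrays gave adjusted p-values from 0.0139 to 0.0714, past 0.05 in 7 of 10 cases.

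The efflux list of 12 genes held 11 that could be tested. Of these, 2 rose (Abca1 and Abcg1), 1 fell and 8 were not called, with a median log2 fold change of 0.12. The 3 calls of 11 are near the 23.8% called over all names. The gene that fell was Abcg4, a relative of Abcg1 best known from brain, at -0.71 (SE 0.18, limma adjusted p 0.00926). That call was lost in 8 of 10 fits that left out 1 array, with an adjusted p of up to 0.0246. Apoe, which carries cholesterol out of macrophages, had a log2 change of 0.62 (limma adjusted p 0.275). Nr1h2, the LXR-beta gene, had -0.39 (0.0807), and the RXR genes Rxra and Rxrb had -0.29 (0.206) and 0.08 (0.624). Apoa1 was above background on 0 arrays.

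Between the uptake genes, Scarb1 rose and Lrp1 was not called. Scarb1 encodes SR-B1, a receptor that takes up cholesterol ester from HDL. Log2 ratios were -0.34, -0.66, -0.37, -0.60 and -0.81 on sham 1 to 5. In PPE 1 to 5, the ratios were 0.17, 0.25, 0.29, 0.47 and 0.06. All sham arrays were below the reference and all PPE arrays above it. The mean was -0.56 ± 0.20 (SD, n = 5) in sham and 0.25 ± 0.15 in PPE, a log2 difference of 0.80 (SE 0.12, limma adjusted p 0.000374) or 1.75-fold (95% interval 1.45 to 2.11). Within slide 1 the difference was 0.55 and within slide 2 it was 0.89. Under median centring it was 1.37, which was not called (limma adjusted p 0.191). The probe lies at chr5:125757483-125757542 (mm9, minus strand).

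A second Scarb1 probe, 4057 bases away, gave a smaller value and no call. Its log2 ratios were -0.58, -0.47, -0.51, -0.40 and -0.18 on sham 1 to 5. On PPE 1 to 5 they were -0.29, 0.08, 0.03, 0.02 and 0.33. Only PPE 1 overlapped sham on this probe, and the difference was 0.46 (limma adjusted p 0.0151 in the fit over all probes).

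Lrp1 encodes a large endocytic receptor for apolipoprotein E remnants and for proteases bound to their inhibitors. Log2 ratios were 1.0, 1.05, 0.44, 1.43 and 0.89 on sham 1 to 5. In PPE 1 to 5, the ratios were 0.92, 1.40, 1.03, 0.98 and 1.23. The PPE values lay inside the sham range. The mean was 0.96 ± 0.36 (SD, n = 5) in sham and 1.11 ± 0.20 in PPE, a log2 difference of 0.15 (SE 0.17, limma adjusted p 0.552), with a 95% interval of the fold of 0.854 to 1.44. A dim second probe, 50655 bases away and above background on 7 arrays, gave 0.31 (limma adjusted p 0.0642 in the fit over all probes). Scarb1 changed by 0.65 more than Lrp1 (Lrp1 minus Scarb1 -0.65, exact p 0.0317, adjusted 0.0370). With the second probes this was -0.15 (adjusted 0.429), and leaving out single arrays gave adjusted p-values from 0.0111 to 0.0714, past 0.05 in 6 of 10 cases.

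The uptake list held 12 genes, all tested, of which 3 were called higher, 2 lower and 7 not, beside 13.9% higher and 9.96% lower over all names, with a median log2 fold change of 0.16. The scavenger receptor Msr1, which binds modified LDL, rose by 2.85 (SE 0.25, limma adjusted p 6.36e-06) on the log2 scale. Olr1, another receptor for modified LDL, passed the filter on dim probes through the PPE arrays, being above background on 5 of 5 of them and on 1 of 5 sham arrays. Its mean log2 ratio was -0.24 ± 0.15 in sham, mostly a background value, and 1.77 ± 0.63 in PPE. Among the 9 genes above background on all 10 arrays, 2 rose and 2 fell. Vldlr, a receptor for triglyceride-rich particles, fell by 2.73 (SE 0.20, limma adjusted p 1.91e-06). Cd36, which takes up fatty acids and oxidised LDL, fell by 1.17 (SE 0.29, limma adjusted p 0.00815), a call lost in 8 of 10 fits that left out 1 array, with an adjusted p of up to 0.0229.

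Among synthesis genes, Insig1 fell. Insig1 encodes the protein that retains Scap and SREBP-2 in the endoplasmic reticulum, and it is itself a target of SREBP-2. Its log2 ratios were -0.22, -0.46, -0.69, -0.64 and -0.06 on sham 1 to 5. On PPE 1 to 5 they were -2.04, -2.13, -1.58, -1.52 and -1.20. Every PPE array was below every sham array. The mean was -0.41 ± 0.27 (SD, n = 5) in sham and -1.69 ± 0.39 in PPE, a log2 difference of -1.28 (SE 0.19, limma adjusted p 0.000352), or 2.43-fold lower. Within slide 1 the difference was -1.87 and within slide 2 it was -0.97. Under median centring it was -0.78, which was not called (limma adjusted p 0.182). The probe lies at chr5:28404246-28404305 (mm9, plus strand).

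Srebf2, which encodes SREBP-2, was called on 1 of its 2 probes and not on the brighter one that represents it. On the brighter probe (chr15:82034765-82034824, mm9, plus strand) the log2 ratios were -1.63, -1.13, -1.23, -2.01 and -1.26 on sham 1 to 5. In PPE 1 to 5, the ratios were -0.83, -1.28, -0.72, -0.85 and -0.85. PPE 2 lay among the sham values, and the other 4 PPE arrays were above all of them. The mean was -1.45 ± 0.36 (SD, n = 5) in sham and -0.91 ± 0.22 in PPE, a log2 difference of 0.55 (SE 0.18, limma adjusted p 0.0327), which was not called.

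On the other Srebf2 probe (chr15:82030068-82030127), 4697 bases upstream of the first, the log2 ratios were -1.77, -1.35, -1.20, -1.41 and -0.57 on sham 1 to 5. On PPE 1 to 5 they were 0.29, -0.37, -0.34, -0.02 and -0.12. Here every PPE array was above every sham array, and the log2 fold change was 1.15 (limma adjusted p 0.00129 in the fit over all probes). Whether the pair of probes changed by different amounts was asked after these values had been seen, for the 4 genes with 2 probes. For Srebf2 the probes differed by 0.60 (exact permutation p 0.0476, adjusted 0.190 over 4 genes), and for Scarb1 by -0.34 (exact p 0.143, adjusted 0.265). The probes of Lrp1 and Nr1h3 differed by 0.16 (exact p 0.571, adjusted 0.571) and 0.07 (exact p 0.198, adjusted 0.265). None of these adjusted values passed 0.05.

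**Figure D2:**
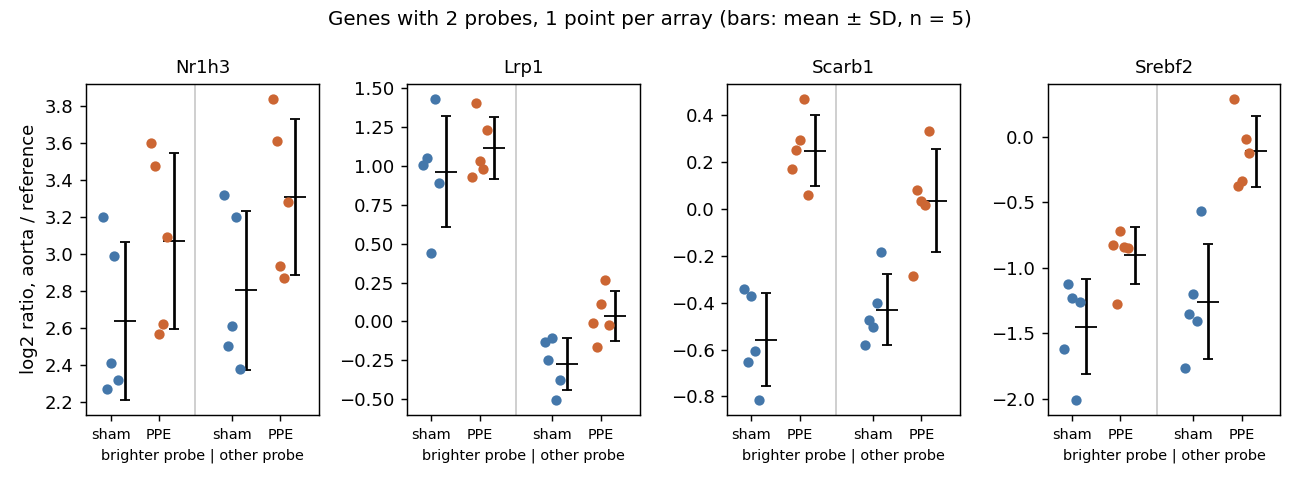
Log2 ratio of aorta over reference on each of the 2 probes of Nr1h3, Lrp1, Scarb1 and Srebf2, 1 point per array (5 sham in blue, 5 PPE in orange), with mean and SD as bars. The groups separate on 1 probe of Scarb1 (0.80 on the brighter) and on 1 probe of Srebf2 (1.15 on the other), and overlap on the remaining 6 probes.

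Sqle encodes squalene epoxidase, a rate-controlling enzyme after squalene. Log2 ratios were -1.83, -1.89, -1.39, -2.24 and -2.45 on sham 1 to 5. In PPE 1 to 5, the ratios were -2.70, -2.74, -1.97, -2.19 and -2.03. The PPE 1 and PPE 2 values were below all sham values and the other 3 lay among them. The mean was -1.96 ± 0.41 (SD, n = 5) in sham and -2.33 ± 0.37 in PPE, a log2 difference of -0.37 (SE 0.22, limma adjusted p 0.238, 95% interval -0.85 to 0.12), which was not called. Within slide 1 the difference was -0.89 and within slide 2 it was -0.44. With slide as a block it was -0.62 (limma adjusted p 0.0214), also not called. The sign turned under median centring of the arrays (0.31, limma adjusted p 0.733).

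The 3 synthesis genes differed from each other in their change. Srebf2 minus Insig1 was 1.83 higher with PPE (exact p 0.00794, adjusted 0.0185), Sqle minus Insig1 was 0.91 higher (exact p 0.0159, adjusted 0.0222), and Sqle minus Srebf2 was -0.91 (exact p 0.0159, adjusted 0.0222). Each stayed under an adjusted p of 0.05 in all 10 tests that left out 1 array. With the authors' processed ratios Srebf2 minus Insig1 was 2.49 and Sqle minus Insig1 1.49, so these sizes depend on processing.

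Of the 20 enzymes that lead from acetyl-CoA to cholesterol, 1 rose, 3 fell and 16 were not called. The 4 calls of 20 are no larger a share than the 23.8% called over all names. With slide as a block, which compares arrays within slides 1 and 2 only, 6 enzymes were lower, and 5 with the authors' processed ratios. Without the filter on dim probes 2 were lower, and under median centring 0. Leaving out single arrays gave 2 to 5. Fdft1, squalene synthase, had a log2 difference of -0.86 (SE 0.17, limma adjusted p 0.00199), and Tm7sf2, a sterol C14 reductase, had -0.70 (SE 0.13, 0.00172). Hmgcs1, which makes HMG-CoA, had -0.79 (SE 0.19, 0.00661), and its adjusted p was over 0.01 in 8 of 10 fits that left out 1 array (up to 0.018). The enzyme that rose was Ebp, a sterol isomerase, at 0.82 (SE 0.11, limma adjusted p 0.000149). These 4 are named because they are few, after their values were seen. The list's median was -0.39, with 15 of 20 enzymes below 0, beside a median of 0.02 over all names. Under median centring, which moved the median over all names to 0.41, the list's median was 0.29, with 6 of 20 enzymes below 0 and 13 of 20 below the median over all names.

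Among the 8 regulators of synthesis, 2 fell (Insig1 and Insig2), none rose and 6 were not called, with a median log2 fold change of -0.24. The 2 calls of 8 are near the 23.8% called over all names. Insig2, a relative of Insig1 with the same role, had a log2 difference of -0.74 (SE 0.12, limma adjusted p 0.000644), and like Insig1 did not pass under median centring (-0.05, 0.966). Srebf1, the SREBP gene of fatty acid synthesis, was at -0.53 (limma adjusted p 0.0204), and Scap at -0.09 (0.637).

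Of the 5 lists, the one named storage and trafficking, which also holds oxysterol enzymes, had the largest share of calls. In it 7 of 11 genes were higher and 1 lower, with a median log2 fold change of 1.10, beside 13.9% higher and 9.96% lower over all names. Among the 8 genes above background on all 10 arrays, 5 were higher and 1 lower, with a median of 1.04. The oxysterol enzymes Cyp7b1, which hydroxylates 25- and 27-hydroxycholesterol, and Ch25h, which makes 25-hydroxycholesterol, rose by 3.54 (SE 0.29, limma adjusted p 4.34e-06) and 2.93 (SE 0.15, 2.7e-07). With the authors' processed ratios Cyp7b1 was at 1.44 (limma adjusted p 0.0654) and was not called. Soat2, which esterifies cholesterol, rose by 1.80 (SE 0.29, limma adjusted p 0.000593), and Nceh1, which hydrolyses the ester in macrophages, by 1.57 (SE 0.14, 9.01e-06). The lysosomal lipase Lipa rose by 1.18 (SE 0.23, limma adjusted p 0.00177). The carriers of lysosomal and endosomal cholesterol Npc2 and Stard3 were the remaining genes that rose, Npc2 by 1.10 (SE 0.15, 0.00013). The gene that fell was Cav1, the caveolar coat protein, at -0.90 (SE 0.17, 0.00142). Over the 5 lists together 13 of 62 genes were called higher and 9 lower, beside 13.9% and 9.96% over all names, and under median centring 3 higher (Abcg1, Msr1 and Ch25h) and 0 lower.

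**Figure D3:**
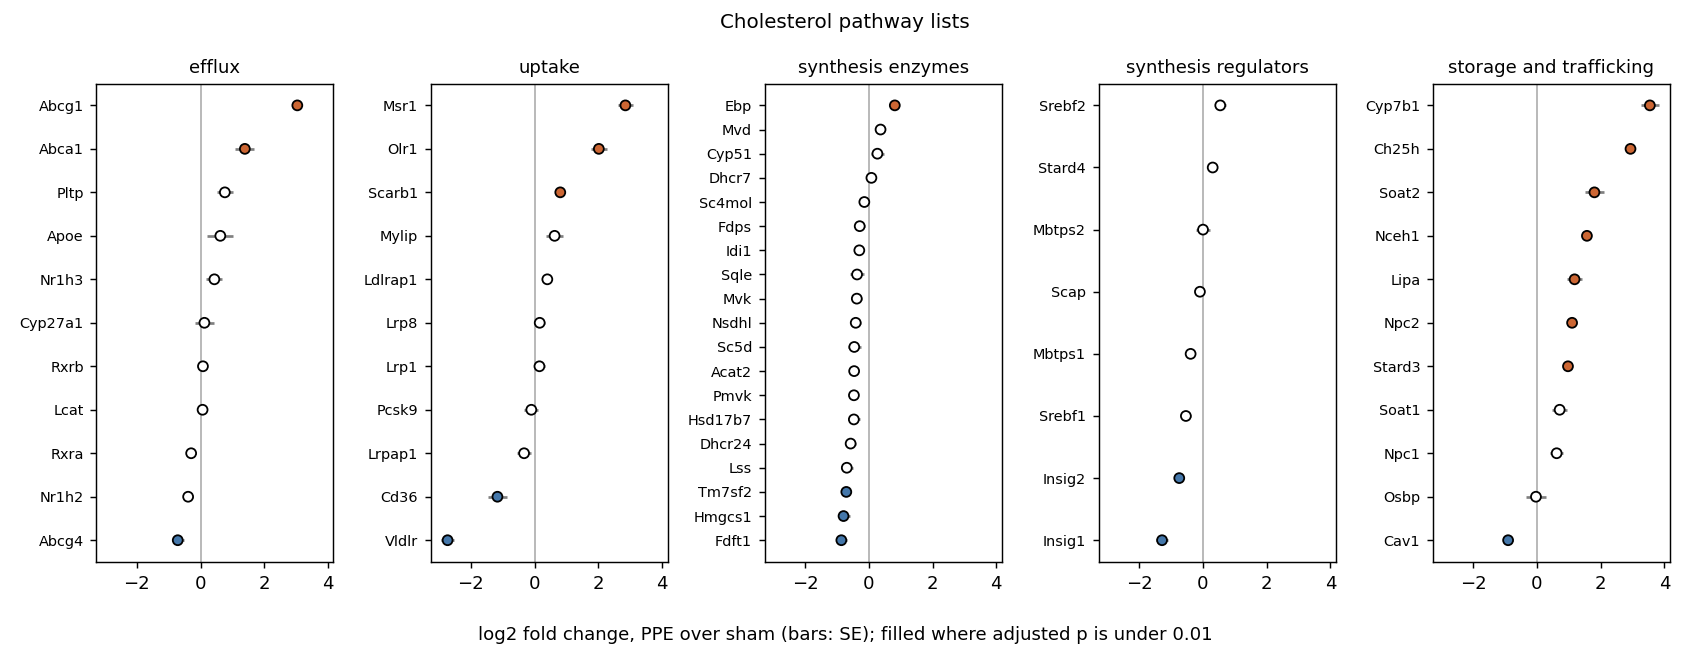
Log2 fold change of PPE over sham with its SE for tested genes of 5 cholesterol lists (2 not shown), filled orange where higher and blue where lower at a limma adjusted p under 0.01, open otherwise. Left of 0 lie 15 synthesis enzymes (6 under median centring), and 7 of 11 genes of the storage and trafficking list, oxysterol enzymes among them, are filled orange.

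Markers of several cell types moved with the groups that hold these genes. Their counts stand beside 13.9% of all names higher and 9.96% lower. Of 12 macrophage markers 9 were higher with PPE and 0 lower, and their mean log2 ratio per array ran from 0.71 to 1.15 in sham and from 2.56 to 3.54 in PPE. Of 7 tested neutrophil markers 5 were higher, but Mpo and Cxcr2 were above background on 1 of 5 sham arrays and passed the filter through the PPE arrays. Of the 4 above background on all 10 arrays 2 were higher (0.71 to 1.0 in sham, 2.89 to 3.69 in PPE). Of 10 smooth muscle markers 8 were lower (3.02 to 4.19 in sham, 1.54 to 2.69 in PPE), with every array above the reference. Of 8 fibroblast markers 5 were higher (2.30 to 2.73 in sham, 3.09 to 4.12 in PPE), and of 8 endothelial markers 0 were called (2.35 to 3.29 in sham, 2.48 to 3.47 in PPE). The log2 fold changes of the endothelial markers ran from -0.59 to 1.20, with 4 above 0 and 4 below. The part of the marker shifts in the changes of Abcg1, Abca1, Scarb1 and Insig1 was not tested.

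Per the study's methods the aorta was freed of fat and connective tissue under a microscope, and markers of fat were nevertheless measured. The counts that follow also stand beside 13.9% of all names higher and 9.96% lower. Of 8 brown fat markers 7 were lower with PPE, and of the 6 above background on all 10 arrays 6 were lower (4.34 to 5.23 in sham, 1.25 to 2.93 in PPE). Of 10 adipocyte markers 3 were lower (4.33 to 5.35 in sham, 3.19 to 4.56 in PPE). The brown fat marker Elovl3 was above background on 5 of 5 sham and 0 of 5 PPE arrays, and passed the filter through the sham arrays. Of 4 tested adrenal cortex markers, a tissue rich in Scarb1, 2 were higher (-0.13 to -0.07 in sham, 0.03 to 0.35 in PPE), and 3 more were above background on fewer than 5 arrays. Of the 4 tested, 0 were above background on all 10 arrays, and the 2 higher ones were above it on 4 of 5 sham arrays. The part of fat and adrenal tissue in the values of Insig1, Vldlr, Cd36 and Scarb1 was not tested.

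The gene names whose log2 ratios over the 10 arrays ran most like each gene are given as a description. Where groups stand apart the likeness includes the group difference, and all points share arrays and reference. Abcg1 ran most like Inpp5d (r 0.997), Rassf2 and Sirpa. Abca1 ran most like an unnamed probe (r 0.989), a transcript named only by an Ensembl identifier and Fam55d. Scarb1 ran most like Nrp2 (r 0.981), Ddx31 and Fam38a, and Insig1 most like 2210411K11Rik (r 0.993), Grhpr and Pla2g5. Among genes whose groups overlapped, Nr1h3 ran most like Tgfbi (r 0.963) and Adcy4. Lrp1 ran most like Nutf2 (r 0.969), Rnf40 and Lmf2, Sqle most like Gm5797 (r 0.938), Nt5dc3 and Mars2, and Srebf2 most like Dusp11 (r 0.971), Prr7 and a lincRNA region.

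**Figure D4:**
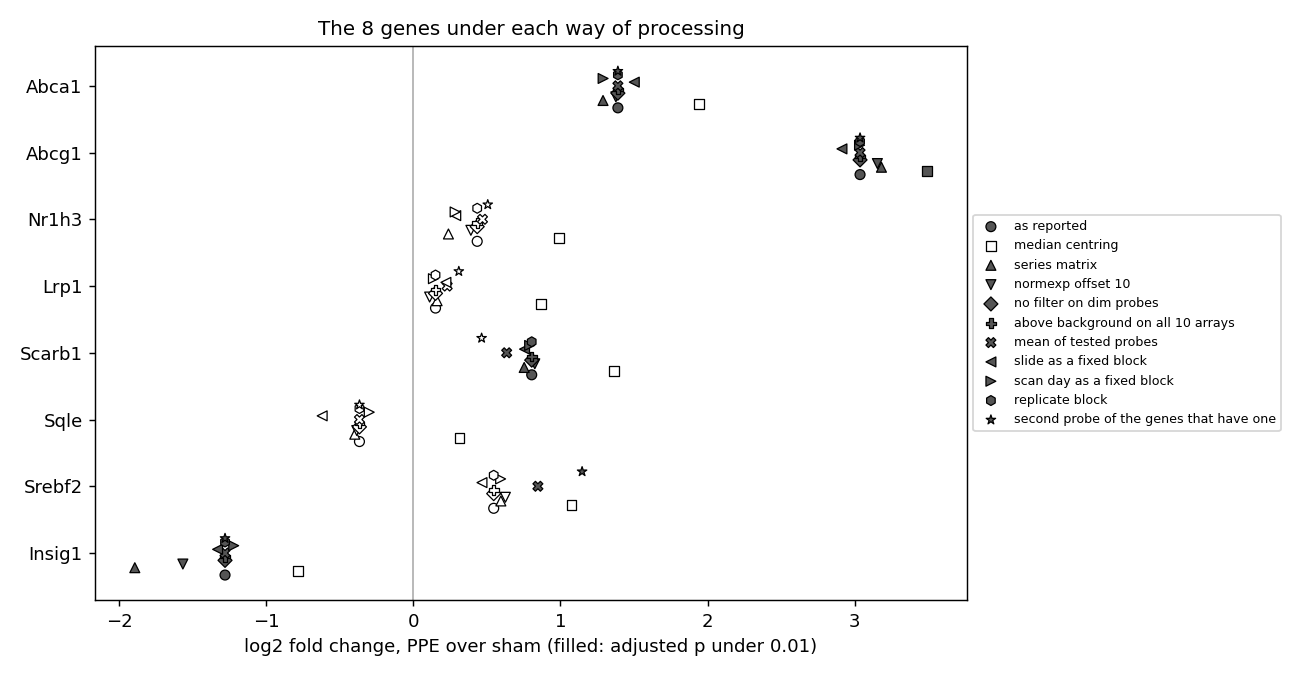
Log2 fold change of PPE over sham of each gene as reported and under 10 other ways of processing the same arrays (1 symbol each, with arrays left out not shown), filled where the limma adjusted p is under 0.01. Abcg1 is filled throughout, but it has 1 probe, so the choices of probe and filter cannot move its value. Sqle changes sign under median centring (0.31), and Srebf2 is filled with its second probe (1.15) and with the mean of probes (0.85).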

How the data were processed

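Gene expression was measured on 2-colour Agilent arrays, with aortic RNA in Cy5 and reference RNA in Cy3 and no dye swap. Per the study's methods, the authors left out arrays of poor quality and outlying arrays, which are not identified in the sources used here. Spot values were extracted by the authors in Agilent Feature Extraction 10.7.3.1. Deposited for each spot are signals, which are a linear intensity, and a LogRatio, which is log10 of red over green, and the authors' series matrix holds log2 ratios, which equalled processed red over green on 100% of spots (tolerance 1e-04).

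In R 4.3.3 with limma 3.58.1, mean signals were corrected by normexp (offset 50, which shrinks ratios of dim probes) and each array was normalized by loess. Control spots and 176 to 331 outlier spots per array were left out. No spot was saturated. Probes entered the test if their red signal passed the scanner software's background flag on 5 or more of 10 arrays, and a gene was represented by its brightest tested probe. Groups and replicate numbers came from the sample labels. The 2 groups were compared unpaired with lmFit and eBayes, two-sided, with Benjamini-Hochberg adjustment over 22520 names and a threshold of 0.01, in place of the study's SAM at the same false discovery rate. Unadjusted, 9825 names had a p under 0.05. Single differences were compared by exact permutation tests. The number of arrays, 5 per group, limits the precision.

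The genes and the lists were chosen with earlier results of these data known. Genes were named by a rule: all 8 genes with every probe, of each list the called genes with a log2 fold change over 1 in size (at most 5 per direction), and the 3 names most like each gene. Some genes that met the rule or belong to the lists are counted but not reported here by name. Other genes were named for their role or because they are few. Scripts were tested on simulated data. Alternatives covered the normalization, offset, filter, probe choice, slide, scan day, replicate number and each array left out. Lists restricted to genes above background on all 10 arrays were added after seeing the data. Probe positions are those of the files on mm9.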

Additional observations from a re-analysis of the deposited data

Results flagged for a closer look

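Of 24 groups of 5 values looked at (12 probes in sham and in PPE), 1 held a value far from the others of its group. On the brighter Srebf2 probe, PPE 2 had a log2 ratio of -1.28, while the other PPE arrays lay between -0.85 and -0.72. Chance gives about 1 such value in 20 groups. On the other Srebf2 probe PPE 2 was also the lowest PPE array, at -0.37, next to PPE 3 at -0.34.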

How the results depend on the processing

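Abcg1 kept its call under every alternative run, of which Aquantile cannot change a log ratio and the deposited LogRatio and series matrix gave the 8 genes equal values. Abcg1 has 1 probe, so the choices of probe and of filter left its log2 fold change at 3.04 by construction and do not check it. Centring arrays on their medians instead of loess (median centring) moved the median over all names from 0.02 to 0.41 and gave 408 higher and 8 lower names, against 3122 and 2244. Under it Abca1 (1.94, adjusted p 0.163), Scarb1 (1.37, 0.191) and Insig1 (-0.78, 0.182) lost their calls, and Sqle turned to 0.31. Relative to the shifted median, these genes were at 1.54, 0.96, -1.19 and -0.09. The cause was not tested. It left 3 higher and 0 lower calls over the 5 lists (13 and 9 as reported), and put Lrp1 minus Scarb1 at -0.50 (adjusted p 0.0556). The mean of tested probes (Srebf2 0.85) and the second probe (Srebf2 1.15, Scarb1 0.46, Lrp1 minus Scarb1 -0.15), the latter chosen after seeing the data, moved those calls. Leaving out single arrays gave 1.24 to 1.66 for Abca1, 0.72 to 1.23 for Abca1 minus Nr1h3, and -0.83 to -0.52 for Lrp1 minus Scarb1. All names then gave 2514 to 3615 higher and 1752 to 2348 lower. Sham and PPE arrays with the same replicate number had correlations of deviations from -0.299 to 0.516, and whether these numbers pair the samples was not tested. With the replicate block 3024 names were higher and 2281 lower, with no call of the 8 genes changed. With the authors' processed ratios Insig1 was at -1.89 and the median over all names at -0.03.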
